A study of Mus musculus with 60 samples.

Results

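The genes described here encode the urea cycle and the enzymes that break down amino acids in mouse liver, and they were followed after partial hepatectomy (PHx, surgical removal of most of the liver, after which the remnant regrows). They were taken as a list of 56 symbols in 10 pathways, and a row was looked for under each symbol in the deposited tables. Rows were found for 55 of the 56, out of 14620 genes in the time course tables, and all 55 passed the filter on low values. Tdh was not analysed here. The mice were 8-week-old C57BL/6 males. PHx mice operated on at 8 to 9 am (morning) were sampled at 4, 8, 12, 16, 20, 24, 28 and 32 h, and PHx mice operated on at 8 to 9 pm (night) at 4 and 24 h. Sham mice, which had an operation without resection, were sampled at the same times after the same hours of operation. Each of the 20 groups held 3 mice, 60 livers in all, and polyA RNA of whole liver was sequenced.

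Amino acids that are not used for protein are stripped of their nitrogen in hepatocytes. The carbon skeletons enter the tricarboxylic acid cycle, gluconeogenesis or ketone formation, and the nitrogen leaves as urea, made from ammonia and aspartate in a cycle that spans mitochondrion and cytosol. In the liver lobule the urea cycle and glutamine-splitting enzymes are strongest near the portal vein. Many of these genes are induced by glucagon, glucocorticoids and fasting, and liver transcripts of this kind often follow the daily feeding cycle.

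The time course was deposited as log2(value + 1), so levels below are log2 units unless another unit is named, and a difference is PHx minus sham on that scale with its standard error. Because 1 was added before the log, differences of weakly expressed genes come out too small. The words rose and fell are used for a Benjamini-Hochberg adjusted p under 0.05 over all genes tested (limma for the time course, edgeR for counts). In TPM (a unit scaled to transcript length and library total), the 6 sham livers at 4 h, morning and night together, had their highest levels among these genes for Bhmt (mean 2838, range 1416 to 4792 TPM), Arg1 (2240, 1957 to 2452 TPM) and Ass1 (2076, 1813 to 2408 TPM). The lowest were Nags (26.7 TPM), Amt (24.4 TPM) and Sdsl (7.0 TPM).

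Several facts of the libraries touch the results. The 24 h tables hold 24.6 to 30.2 M counts per library, while the depth of the time course is unknown. By their library IDs, sham libraries at 4 h belong to another series than PHx libraries at 4 h, so that operation and series cannot be told apart there. The library labelled sham 4 h replicate 1 lists 3422 genes at 0, against at most 1414 in any other time course library. Over 11974 genes it correlated most with a night library of the separate 4 h sham table (r = 0.883, against 0.863 to 0.871 with the 3 morning libraries), while the other 2 sham 4 h libraries correlated most with a morning one (r = 0.93 and 0.935), for 1 of them under another replicate number. Replicate numbers thus do not map cleanly between these tables. Whether the label of this library holds was not tested, and it enters the 4 h differences and the sham rhythm. Counts at 4 h, and the members' values there, are given without it as well. PHx 28 h replicate 2 had the lowest level of its group for several genes below. The summed level of 10 hepatocyte markers, all detected in every group, had a median of 94420 in PHx against 79666 in sham livers at 4 h. Its median was lower in PHx livers at the other times, with 64184 and 73561 at 24 h and 78528 and 99997 at 32 h for PHx and sham. The ranges of PHx and sham livers overlapped at 8, 12, 16 and 28 h. Among these markers 5 rose and 1 fell at 4 h, 2 rose and 5 fell at 16 h, and 2 rose and 3 fell at 24 h. Of all genes, 9.32% were called higher and 37.6% lower at 4 h. At 16 h these shares were 7.31% and 6.35%, and at 24 h 9.19% and 3.11%. In bulk tissue fewer hepatocytes and less RNA per hepatocyte cannot be told apart. The summed level of 11 Kupffer cell and macrophage markers was higher in PHx livers without overlap at 16 to 32 h. Its medians at 28 h were 902 in PHx and 518 in sham livers. At 4 h it was lower without overlap (medians 288 in PHx and 490 in sham livers). That of 10 sinusoidal endothelial markers was lower without overlap at 4, 8 and 12 h (medians at 4 h 105 in PHx and 187 in sham livers). The sum of 4 detected neutrophil markers was higher without overlap at 4 h (medians 36.1 in PHx and 2.9 in sham livers) and from 12 to 28 h. The summed level of 8 pancreatic acinar genes was 5872 in 1 of the 3 PHx livers at 4 h and 1885 in 1 at 16 h, with medians of 34.1 in PHx and 30.8 in sham livers at 4 h. The part of these marker changes in the results below was not tested.

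Promoter sequences of 300 bases, from 250 before to 50 after the annotated start, were matched by symbol for 44 of the 56 genes, which have 48 promoters (RefSeq, build GRCm38.p6). The 4 shown are, among genes with a promoter in that table, those with the lowest mean response to PHx (Afmid and Prodh) and with the largest rise at 4 h (Aass and Tat), chosen after these values were known. They lie at chr11:117825669-117825968 (plus strand), chr16:18089141-18089440 (minus strand), chr6:23132937-23133236 (minus strand) and chr8:109990186-109990485 (plus strand), and each is written 5′ to 3′ on the strand of its gene. Capitals mark a match to the C/EBP motif TTNNGNAA on either strand.
Afmid: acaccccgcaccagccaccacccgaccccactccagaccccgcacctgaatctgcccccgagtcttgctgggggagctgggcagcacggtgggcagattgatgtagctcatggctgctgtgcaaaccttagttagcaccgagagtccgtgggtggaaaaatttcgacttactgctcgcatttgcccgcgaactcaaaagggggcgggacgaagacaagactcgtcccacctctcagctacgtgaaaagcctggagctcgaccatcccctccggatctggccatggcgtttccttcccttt
Prodh: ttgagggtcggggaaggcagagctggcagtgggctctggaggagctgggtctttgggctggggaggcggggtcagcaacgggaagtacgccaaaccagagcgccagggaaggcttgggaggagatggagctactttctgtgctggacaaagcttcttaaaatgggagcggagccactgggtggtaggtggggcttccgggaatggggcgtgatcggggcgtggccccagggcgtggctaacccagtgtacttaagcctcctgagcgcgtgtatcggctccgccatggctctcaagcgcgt
Aass: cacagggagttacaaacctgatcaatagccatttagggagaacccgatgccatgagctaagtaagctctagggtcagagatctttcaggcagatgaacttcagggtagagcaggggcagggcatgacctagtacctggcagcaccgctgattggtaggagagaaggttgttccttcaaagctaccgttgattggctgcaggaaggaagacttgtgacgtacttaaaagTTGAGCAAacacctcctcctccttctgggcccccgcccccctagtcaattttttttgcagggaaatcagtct
Tat: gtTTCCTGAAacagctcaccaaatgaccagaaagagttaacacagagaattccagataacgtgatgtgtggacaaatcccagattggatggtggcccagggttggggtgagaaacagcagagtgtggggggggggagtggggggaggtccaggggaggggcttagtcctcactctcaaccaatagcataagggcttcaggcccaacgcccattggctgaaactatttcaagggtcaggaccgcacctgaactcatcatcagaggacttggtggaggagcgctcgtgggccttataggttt

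The Aass promoter holds 1 such match, starting at position -22 from the annotated start, and the Tat promoter holds 1, starting at -248. The windows of Afmid and Prodh hold none of these letters. The motif was found on either strand in 16 of the 48 promoters of these genes (33.3%) and in 40.7% of all 32851 promoters of the table. The D-box motif TTANGTAA, each match of which is also a C/EBP match, was in 0 of 48 and in 2.3% of all. The E-box CACGTG was in 5 of 48 (10.4%) and in 7.2% of all, and CCAAT in 26 of 48 (54.2%) and in 37.4% of all. A match is a stretch of letters and not a site shown to be bound.

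The first question of the design is what PHx did to these genes over time. Averaged over the 8 times, 41 of 55 fell and 6 rose (74.5% and 10.9%), while among all 12957 genes tested 25.5% were called lower and 27.4% higher. The median difference of the 55 was -0.48, against 0.01 for all genes. The falls covered all 8 branched-chain genes, all 4 histidine genes, all 5 glycine and one-carbon genes, 4 of 5 glutamine, glutamate and proline genes, 4 of 5 tryptophan genes and 4 of 5 phenylalanine and tyrosine genes. Urea cycle genes fell in 3 of 8. The 6 that rose were Sdsl and Agxt of the serine and alanine group, Aass (lysine), Mat1a (methionine), Slc25a15 (urea cycle) and Kmo (tryptophan). A test of any difference over the 8 times called 51 of 55, where 65.5% of all genes were called. The 4 not called were Cps1, Arg1, Glud1 and Cbs.

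**Figure D1:**
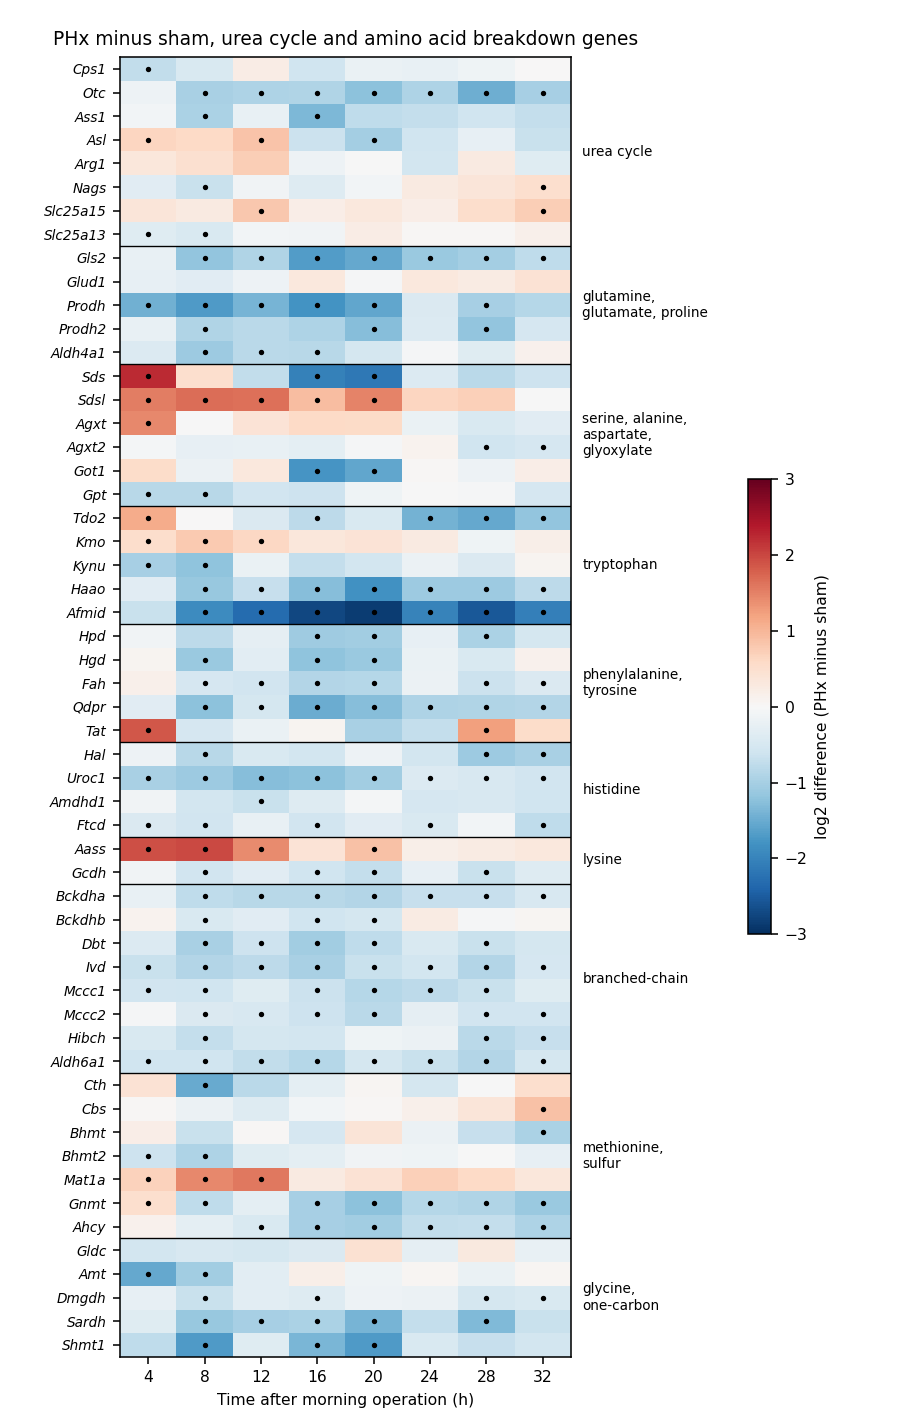
Difference in log2(value + 1), PHx minus sham, for the 55 genes (rows, grouped by pathway) at 8 times after morning operation (columns, h); red is higher and blue lower after PHx, and dots mark an adjusted p under 0.05. Blue prevails from 8 h on, and the genes called higher at 4 h are Sds, Sdsl, Agxt, Tdo2, Kmo, Tat, Aass, Mat1a, Asl and Gnmt.

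By time, 10 of the 55 rose and 12 fell at 4 h, where 9.32% of all genes were called higher and 37.6% lower. At 8 h 4 rose and 34 fell (6.04% and 18.7% of all genes). At 12 h 6 rose and 17 fell (7.57% and 8.63%), at 16 h 1 rose and 29 fell (7.31% and 6.35%), and at 20 h 2 rose and 26 fell (12.5% and 5.87%). None rose and 14 fell at 24 h (9.19% and 3.11% of all genes). An unadjusted p under 0.05 was found there for 21 of the 55 and for 3342 of all 12957 genes. At 28 h 1 rose and 25 fell (14.9% and 5.59%), and at 32 h 3 rose and 20 fell (11.8% and 3.60%). The share that fell was thus below that of all genes at 4 h and above it at each later time. With edgeR on the counts of the 24 h tables, 1 rose and 17 fell at 24 h, where 6.69% of all genes were called higher and 5.11% lower.

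The median difference of the 55 from 4 to 32 h was -0.16, -0.66, -0.36, -0.62, -0.52, -0.28, -0.52 and -0.49, and that of all genes was -0.32, -0.15, -0.01, 0.05, 0.13, 0.10, 0.13 and 0.14. The median of all genes is the level against which each gene's difference can be set. TMM scaling, which centres the bulk of genes, gave 20 higher and 3 lower at 4 h (21.5% and 18.8% of all genes). The 10 that rose with the values as deposited also rose with TMM scaling, as the 3 falls of Amt, Prodh and Uroc1 also held. The other 9 falls at 4 h were not called, and 2 of them (Ftcd and Slc25a13) changed sign. TMM scaling gave 5 higher and 20 lower at 8 h (10.6% and 11.6% of all genes) and 0 higher and 27 lower at 32 h (5.80% and 6.39%). Without the library labelled sham 4 h replicate 1, 10 rose and 9 fell at 4 h, the calls of Cps1 (-0.60), Mccc1 (-0.52) and Slc25a13 (-0.31) being lost. Aass (2.1), Tat (2.15), Agxt (1.5), Sdsl (1.27), Tdo2 (1.16), Mat1a (0.76), Asl (0.70), Kmo (0.64) and Gnmt (0.61) also rose without that library. Falls without it were those of Amt (-1.56), Kynu (-1.22), Prodh (-1.21), Uroc1 (-0.96), Ivd (-0.66), Gpt (-0.65), Bhmt2 (-0.60), Aldh6a1 (-0.58) and Ftcd (-0.39). Otc (-0.09), Gls2 (-0.11) and Agxt2 (0.07), also named below for 4 h, were not called without it. Without PHx 28 h replicate 2, 5 rose and 14 fell at 28 h. With the libraries of 28 h alone, 3 fell and none rose. The shares of all genes called in these 28 h fits are not given here. Leaving out 1 library gave 11 to 18 calls at 32 h, with 11 without PHx replicate 1, 14 without sham replicate 1 and 15 without PHx replicate 2, and 15 at 12 h without sham replicate 1 or 2.

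**Figure D2:**
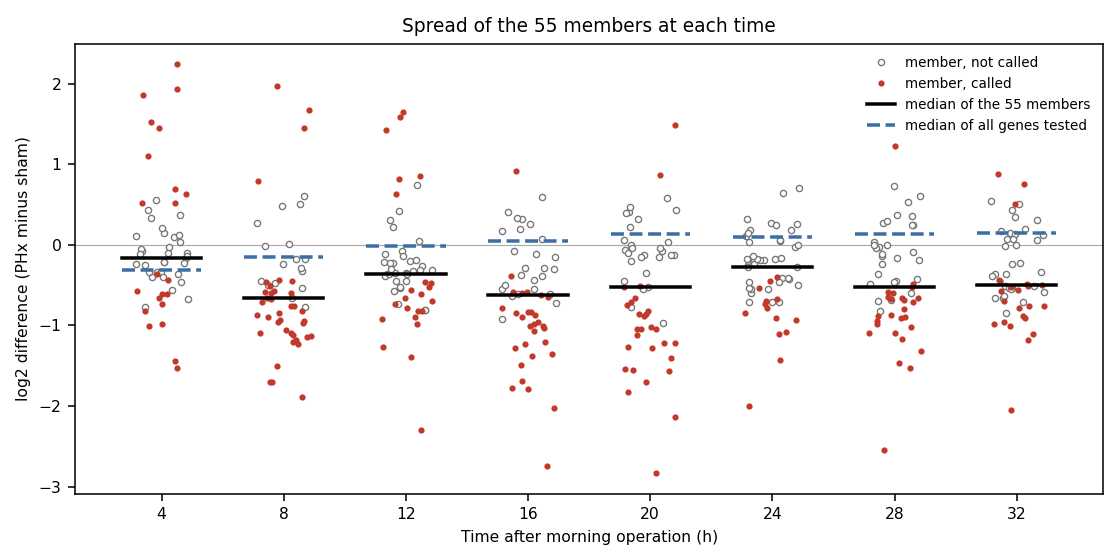
Difference in log2(value + 1), PHx minus sham, of each of the 55 genes (points; filled where the adjusted p was under 0.05) against time after morning operation (h). The black bar is the median of the 55, which was -0.16 at 4 h and -0.62 at 16 h, and the dashed bar is that of all genes tested, -0.32 and 0.05 at those times.

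In the urea cycle, Otc, which joins carbamoyl phosphate to ornithine, fell at each time from 8 to 32 h. Its levels at 8 h were 6.99, 7.0 and 7.16 in PHx livers, against 7.90, 8.06 and 8.13 in sham livers. At 28 h they were 5.33, 6.20 and 6.56 in PHx livers, against 7.35, 7.50 and 7.65 in sham livers. The groups did not overlap at either time, and the differences were -0.98 ± 0.17 (adjusted p = 2.5e-05; -0.64 against sham livers of the same clock hour a day later) and -1.47 ± 0.17 (adjusted p = 5.8e-08; not called from the 28 h libraries alone). At 4 h the difference was -0.16 ± 0.17. Ass1, which condenses citrulline with aspartate, fell at 8 h (-0.94 ± 0.29) and at 16 h (-1.35 ± 0.29).

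Asl, which splits argininosuccinate into arginine and fumarate, took another course. Its levels at 12 h were 9.19, 9.48 and 9.57 in PHx livers, against 8.38, 8.48 and 8.82 in sham livers (0.85 ± 0.23, adjusted p = 0.0095; 0.76 and not called without sham 12 h replicate 2). At 20 h they were 7.12, 8.20 and 8.34 in PHx livers, against 8.62, 8.84 and 9.28 in sham livers (-1.02 ± 0.23, adjusted p = 0.0019). PHx was thus the higher group at 12 h and the lower group at 20 h, without overlap at either time. Cps1, which makes carbamoyl phosphate, fell at 4 h (-0.74 ± 0.27; -0.24 and not called with TMM scaling), and Arg1, the arginase that releases urea, was not called at any of the 8 times. The ornithine carrier Slc25a15 rose at 12 h (0.82 ± 0.21) and at 32 h (0.75 ± 0.21), where it was 0.56 and not called with TMM scaling and 0.70 and not called without PHx 32 h replicate 1. The aspartate-glutamate carrier Slc25a13 fell at 4 and 8 h. Nags, which makes the activator of Cps1, fell at 8 h (-0.68 ± 0.17) and rose at 32 h (0.51 ± 0.17; 0.32 and not called with TMM scaling, 0.41 to 0.56 and not called without any 1 of the 32 h libraries but sham replicate 2).

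Among glutamine, glutamate and proline genes, the liver glutaminase Gls2 fell from 8 to 32 h. At 16 h its levels were 5.07, 5.75 and 6.00 in PHx livers, against 7.18, 7.33 and 7.38 in sham livers, a difference of -1.69 ± 0.20 (adjusted p = 1.0e-07). Every PHx liver was below every sham liver there, and the difference at 4 h was -0.21 ± 0.20. The span of Gls2 overlaps that of Spryd4 in the annotation, whose differences ran from 0.04 to 0.43, so reads of these genes could be split too. The proline dehydrogenase Prodh fell from 4 to 20 h and again at 28 h, by -1.79 ± 0.36 at 16 h, where levels were 6.54, 7.78 and 7.78 in PHx livers and 9.11, 9.17 and 9.19 in sham livers. At 4 h its fall of -1.44 ± 0.36 was -0.95 with TMM scaling. Prodh2, which oxidises hydroxyproline, fell at 8, 20 and 28 h, with -1.29 ± 0.33 at 20 h. Its value at 28 h, -1.18 ± 0.33, was -0.43 and not called without PHx 28 h replicate 2. Glud1, the glutamate dehydrogenase that frees ammonia, was not called at any time, with differences from -0.33 to 0.43.

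Serine dehydratase Sds, which turns serine into pyruvate and ammonia, had the largest rise of the 55 at 4 h. Its levels were 7.21, 7.27 and 7.52 in PHx livers, against 4.88, 4.91 and 5.50 in sham livers (2.24 ± 0.35, adjusted p = 2.3e-06; 2.44 without sham 4 h replicate 1). At 20 h they were 3.34, 3.57 and 3.72 in PHx livers, against 5.50, 5.55 and 6.00 in sham livers (-2.14 ± 0.35, adjusted p = 3.0e-05). The groups were fully apart at both times and in opposite directions. The related serine dehydratase-like gene Sdsl instead rose at 4, 8, 12, 16 and 20 h. At 8 h Sdsl was at 4.47, 4.56 and 5.01 in PHx livers, against 2.94, 3.01 and 3.07 in sham livers, a difference of 1.67 ± 0.28. Its rise at 4 h (1.53 ± 0.28) was 0.91 with a pseudocount of 5. The rise of Sdsl at 16 h (0.92 ± 0.28) was 0.79 to 0.93 and not called without PHx 16 h replicate 2, sham 16 h replicate 1 or sham 16 h replicate 3. The span of Sds overlaps that of Plbd2 in the annotation, whose differences ran from -0.47 to 0.43, so reads of this pair could be split.

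Agxt, the alanine-glyoxylate aminotransferase, rose at 4 h, with levels of 7.93, 7.95 and 8.70 in PHx livers, against 6.57, 6.81 and 6.84 in sham livers (1.45 ± 0.22; 0.93 against sham livers of the same clock hour a day later). It was at -0.01 ± 0.22 at 8 h. Agxt2, another alanine-glyoxylate aminotransferase, was at -0.05 ± 0.16 at 4 h and fell at 28 h (-0.60 ± 0.16) and 32 h (-0.49 ± 0.16). Got1, the cytosolic aspartate aminotransferase, fell at 16 h (-1.77 ± 0.34) and 20 h (-1.57 ± 0.34), with levels at 20 h of 6.50, 7.24 and 7.27 in PHx livers and 8.29, 8.37 and 9.06 in sham livers. Gpt, the alanine aminotransferase, fell at 4 h (-0.83 ± 0.23) and 8 h (-0.84 ± 0.23). At 4 h Gpt was -0.33 and not called with TMM scaling, and -0.54 and not called without PHx 4 h replicate 3.

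The tryptophan genes did not all move in the same direction. Tdo2, the dioxygenase that opens the indole ring as the first step, rose at 4 h, with 10.50, 10.71 and 10.95 in PHx livers against 9.42, 9.70 and 9.73 in sham livers (1.10 ± 0.23, adjusted p = 0.00017). It fell at 16, 24, 28 and 32 h, and at 28 h was at 8.12, 8.26 and 8.31 in PHx livers against 9.60, 9.62 and 10.06 in sham livers (-1.53 ± 0.23). Kmo, the kynurenine hydroxylase, rose from 4 to 12 h by 0.52 to 0.79. Haao, which acts further down towards NAD, fell from 8 to 32 h by -0.70 to -1.83, its levels at 20 h being 5.60, 5.71 and 6.11 in PHx livers and 7.54, 7.54 and 7.83 in sham livers. Kynu, the kynureninase, fell at 4 h (-1.0 ± 0.29; -0.52 and not called with TMM scaling, -0.75 and not called without PHx 4 h replicate 3) and at 8 h (-1.21 ± 0.29).

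Afmid, the formamidase that makes kynurenine, had the lowest mean response of the 55, at -2.13 ± 0.15. At 20 h its levels were 2.89, 3.21 and 4.72 in PHx livers, against 5.95, 6.55 and 6.83 in sham livers (-2.84 ± 0.41, adjusted p = 5.1e-06). At 28 h they were 1.53, 3.73 and 4.17 in PHx livers, against 5.58, 5.67 and 5.83 in sham livers. Every PHx liver was below every sham liver at both times. The span of Afmid overlaps that of Tk1, the thymidine kinase gene of S phase, in the annotation. Tk1 had a mean of 1.05 ± 0.32 in PHx livers and 3.39 ± 0.17 in sham livers at 8 h (SD, n = 3 each), a difference of -2.34. Its difference was -0.78 at 4 h, -1.82, -1.79 and -1.61 at 12, 16 and 20 h, and 0.06, -0.06 and 0.24 at 24, 28 and 32 h. How reads of the pair were split is not given in the sources used here, and the values of both are uncertain for that reason.

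Among phenylalanine and tyrosine genes, Qdpr, which regenerates the cofactor tetrahydrobiopterin, fell at each time from 8 to 32 h. At 16 h its levels were 8.43, 9.22 and 9.25 in PHx livers, against 10.39, 10.46 and 10.53 in sham livers (-1.49 ± 0.15, adjusted p = 6.1e-09). Its difference at 12 h was -0.52 ± 0.15, and -0.47 and not called without sham 12 h replicate 1, or -0.49 and not called without sham 12 h replicate 2. At 28 h its fall of -0.90 ± 0.15 was -0.28 and not called against sham livers of the same clock hour a day earlier. Fah, which ends the tyrosine path with fumarate and acetoacetate, fell at 6 of the 8 times by -0.44 to -0.87. Hgd and Hpd, which act before it, fell at 16 and 20 h by -1.05 to -1.21.

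Tat, the tyrosine aminotransferase that opens the tyrosine path and is a classic glucocorticoid target, stood apart from them. At 4 h it was at 11.26, 11.48 and 11.60 in PHx livers, against 8.34, 10.16 and 10.26 in sham livers (1.86 ± 0.36, adjusted p = 6.3e-05). It was again higher at 28 h, with 10.41, 10.55 and 10.92 in PHx livers against 9.13, 9.17 and 9.88 in sham livers (1.23 ± 0.36, adjusted p = 0.013). The rise at 28 h was 1.08 to 1.12 and not called without PHx 28 h replicate 1, sham 28 h replicate 1 or sham 28 h replicate 2, and not called from the libraries of 28 h alone. From 8 to 24 h Tat was at -0.97 to 0.07 and was not called. The spread of the sham livers at 4 h (SD 1.08, n = 3) was the widest of the 8 sham groups.

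Uroc1, the urocanase of histidine breakdown, was called lower at all 8 times. Levels at 4 h were 4.82, 5.21 and 5.23 in PHx livers, against 5.97, 6.10 and 6.12 in sham livers (-0.98 ± 0.13; -0.49 with TMM scaling). At 12 h they were 4.90, 4.94 and 5.15 in PHx livers, against 6.21, 6.22 and 6.37 in sham livers (-1.27 ± 0.13, adjusted p = 1.3e-08). The fall at 24 h was smaller, at -0.40 ± 0.13 (adjusted p = 0.034), and was not called without any 1 of the 24 h libraries but PHx replicate 1. At 28 h the fall of -0.49 ± 0.13 was -0.35 and not called without PHx 28 h replicate 2. Hal, which makes urocanate, fell at 8, 28 and 32 h, with -1.09 ± 0.30 at 28 h, and its fall at 32 h (-0.98 ± 0.30) was -0.80 to -0.96 and not called without PHx 32 h replicate 2, sham 32 h replicate 1 or sham 32 h replicate 2. Ftcd, which passes the formimino group to folate, fell at 5 times by -0.44 to -0.76, and Amdhd1 fell at 12 h (-0.67 ± 0.21).

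In lysine breakdown, Aass, the bifunctional enzyme of the saccharopine route, rose at 4, 8 and 12 h. At 8 h its levels were 7.40, 7.58 and 7.83 in PHx livers, against 5.49, 5.60 and 5.82 in sham livers (1.97 ± 0.28, adjusted p = 1.6e-06). At 4 h they were 7.47, 7.63 and 8.36 in PHx livers, against 5.66, 5.78 and 6.23 in sham livers (1.93 ± 0.28). A rise at 20 h (0.87 ± 0.28) was 0.55 to 0.91 and not called without PHx 20 h replicate 1, PHx replicate 3, sham replicate 1 or sham replicate 2, was 0.71 and not called with TMM scaling, was not called from the 20 h libraries alone, and was 1.39 without PHx replicate 2. Gcdh, which acts later in the same path, fell at 8, 16, 20 and 28 h by -0.57 to -0.71. The span of Gcdh overlaps that of Syce2 in the annotation, so reads of this pair could be split. The differences of Syce2 ran from -0.83 at 4 h to 1.73 at 32 h.

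None of the 8 branched-chain genes rose at any of the 8 times, and each fell at 3 or more. Bckdha, a subunit of the dehydrogenase that commits branched-chain keto acids to breakdown, fell from 8 to 32 h. Its levels at 20 h were 4.66, 4.75 and 4.76 in PHx livers, against 5.52, 5.57 and 5.71 in sham livers (-0.88 ± 0.11, adjusted p = 9.1e-07). At 24 h they were 4.75, 4.80 and 4.83 in PHx livers, against 5.36, 5.46 and 5.66 in sham livers (-0.70 ± 0.11). The groups were apart at both times. Against sham livers of the same clock hour a day earlier, Bckdha was at -0.20 at 28 h and -0.11 at 32 h and was not called. Its partner Bckdhb fell at 8, 16 and 20 h by -0.46 to -0.60 and was at 0.24 ± 0.13 at 24 h. Ivd of the leucine path and Aldh6a1 of the valine path were called lower at all 8 times, by -0.51 to -0.98 and by -0.52 to -0.89, except that at 4 h both were at -0.18 and -0.11 and not called with TMM scaling. At 16 h Aldh6a1 was at 5.25, 5.75 and 5.90 in PHx livers, against 6.47, 6.49 and 6.49 in sham livers. The span of Aldh6a1 overlaps that of Bbof1 in the annotation, so reads of this pair could be split too. Group means of Bbof1 were at most 0.89, and its differences ran from -0.43 to 0.34.

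In methionine and sulfur metabolism, Ahcy, which clears S-adenosylhomocysteine, fell from 12 to 32 h. At 20 h its levels were 8.57, 8.87 and 9.01 in PHx livers, against 9.55, 9.91 and 10.12 in sham livers (-1.04 ± 0.14, adjusted p = 2.4e-06). At 12 h its fall of -0.46 ± 0.14 was -0.31 and not called without sham 12 h replicate 1, -0.44 and -0.46 and not called without PHx 12 h replicates 1 and 2, and -0.44 and not called with TMM scaling. Mat1a, which makes S-adenosylmethionine, ran the other way early. At 12 h it was at 10.35, 10.40 and 10.49 in PHx livers, against 8.74, 8.78 and 8.99 in sham livers (1.58 ± 0.28, adjusted p = 0.00010). Mat1a also rose at 4 h (0.69 ± 0.28) and 8 h (1.45 ± 0.28). Gnmt, the methyl sink, rose at 4 h (0.52 ± 0.21) and fell at 8 h and from 16 to 32 h by -0.76 to -1.22. Cth, the cystathionine lyase, fell at 8 h (-1.50 ± 0.37), and Cbs, which precedes it, rose at 32 h (0.87 ± 0.28; 0.68 and not called with TMM scaling, 0.78 to 0.92 and not called without any 1 of the 32 h libraries but PHx replicate 3). Of the related pair Bhmt and Bhmt2, Bhmt2 fell at 4 h (-0.62 ± 0.14, and -0.13 and not called with TMM scaling) and 8 h (-0.94 ± 0.14). Bhmt fell at 32 h (-0.96 ± 0.27).

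Among glycine and one-carbon genes, the sarcosine dehydrogenase Sardh fell at 8, 12, 16, 20 and 28 h. At 20 h its levels were 6.95, 7.15 and 7.91 in PHx livers, against 8.65, 8.69 and 8.87 in sham livers (-1.40 ± 0.29, adjusted p = 0.00076). At 28 h they were 5.67, 7.69 and 7.81 in PHx livers, against 8.31, 8.37 and 8.46 in sham livers, and the difference of -1.32 ± 0.29 was -0.63 without PHx 28 h replicate 2. The fall at 16 h (-0.96 ± 0.29) was -0.70 to -0.96 and not called without any 1 of the 16 h libraries but PHx replicate 1, and that at 12 h (-0.99 ± 0.29) was -0.89 to -0.95 and not called without PHx 12 h replicate 1 or sham 12 h replicates 1 or 2. Amt, a subunit of the glycine cleavage system, fell at 4 h, with 3.16, 3.84 and 4.02 in PHx livers against 5.10, 5.14 and 5.36 in sham livers (-1.53 ± 0.22; -1.06 with TMM scaling), and at 8 h (-1.05 ± 0.22). It was at -0.31 to 0.18 and not called at each later time. Shmt1 fell at 8, 16 and 20 h by -1.38 to -1.70, and Gldc, the other cleavage subunit of the list, was not called at any time.

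**Figure D3:**
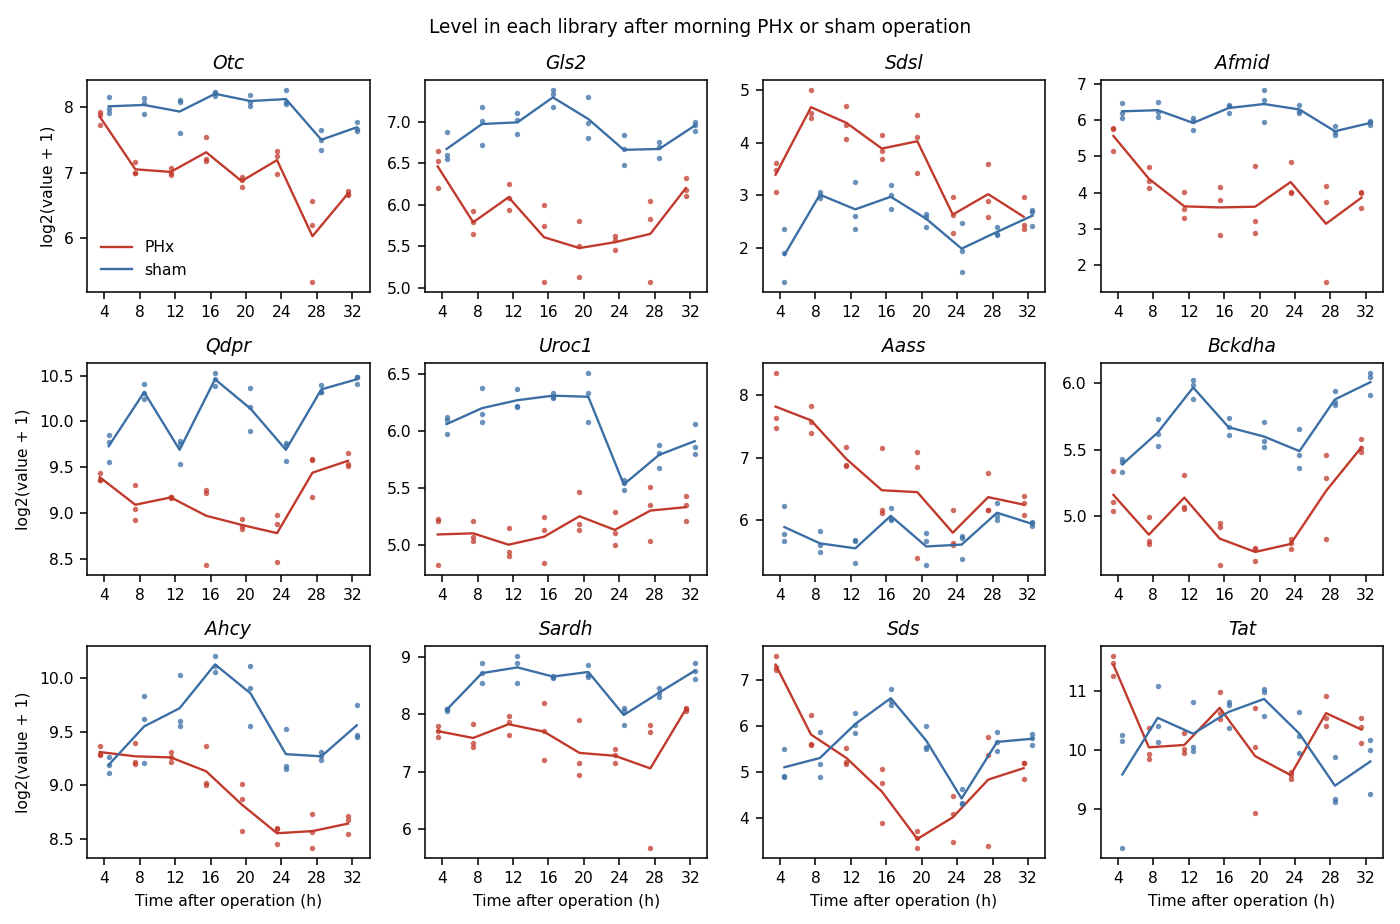
Level in log2(value + 1) of 12 genes in each liver (points) and as the group mean (lines) against time after morning operation (h), PHx red and sham blue. They are the gene with the smallest p over the 8 times in each pathway, with Sds and Tat; PHx livers lie below sham livers from 8 h on for Otc, Gls2, Qdpr and Bckdha, and Sds is above sham at 4 h and below it at 20 h.

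Another question is whether the early response differed from the later one. The mean difference at 16, 20 and 24 h minus that at 4 and 8 h was negative and called for 15 of the 55, where 3.64% of all genes were called lower, and positive and called for 6, where 36.3% were. The median of the 55 was -0.18 and that of all genes 0.33. With TMM scaling 35 were called lower and 1 higher (14.1% and 11.0% of all genes). The 5 lowest were Sds (-2.90 ± 0.32, adjusted p = 1.4e-08), Aass (-1.47 ± 0.26), Tdo2 (-1.45 ± 0.21), Asl (-1.37 ± 0.21) and Got1 (-1.29 ± 0.31). Amt was the highest, at 1.33 ± 0.20, and stayed called with TMM scaling (0.87). Of the genes called higher at 4 h, 4 of 10 (Sds, Asl, Tdo2 and Gnmt) were called lower at 16, 20 or 24 h. The share was 5.79% among all 1208 genes called higher at 4 h. At 16 h alone, 29 of the 55 fell (52.7%), so 4 of 10 is not above the share of the whole list.

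Other enzymes of amino acid breakdown, outside the 55, were also measured. Of 48 such enzymes, 34 fell and 4 rose on average over the 8 times (median -0.41). Of all genes, 25.5% were called lower and 27.4% higher in that test. Ido2, another tryptophan dioxygenase gene, and Acadsb of the isoleucine path fell at all 8 times, with means of -1.19 ± 0.06 and -0.88 ± 0.07. Pipox, which degrades pipecolate and sarcosine, had a mean of -0.97 ± 0.06 and fell from 8 to 32 h, and Gstz1 of the tyrosine path had a mean of -0.48 ± 0.04 and fell from 4 to 28 h. Glutamine synthetase Glul was at -0.27 ± 0.20 and not called. All 6 amino acid synthesis genes rose on average (median 0.45), among them Asns (0.81 ± 0.11), which makes asparagine, Psat1 of serine synthesis (0.60 ± 0.08) and Aldh18a1 of proline synthesis (0.41 ± 0.06). Of 14 amino acid carriers, 6 rose and 5 fell, where the shares of all genes were the same 27.4% and 25.5%. The mitochondrial glutamate carrier Slc25a22 was at 1.34 ± 0.11, and the branched-chain carrier Slc25a44 of the same membrane at -0.90 ± 0.06.

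Of 9 regulators of these pathways, 2 rose and 4 fell on average, where 27.4% of all genes were called higher and 25.5% lower. Cebpb, a factor induced by stress and hormones, was 4.47 ± 0.47 higher at 4 h and 0.68 ± 0.47 (not called) at 8 h. Cebpa, its counterpart in quiescent hepatocytes, fell at every time from 4 to 28 h, with -1.84 ± 0.22 at 16 h. The glucocorticoid receptor gene Nr3c1 fell most at 4 h (-1.92 ± 0.18). Klf15, a regulator of amino acid breakdown and glucocorticoid target, fell at 8, 12 and 20 h, with -2.33 ± 0.31 at 8 h. The glucagon receptor Gcgr fell at 8 h (-0.60 ± 0.11) and 12 h (-0.33 ± 0.11). Ppargc1a, a coactivator of fasting genes, rose at 28 h (1.2 ± 0.27) and was not called at the other 7 times.

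The next question is the daily rhythm. In the 24 sham livers, a 24 h curve was called for 26 of 55 genes (47.3%), where 28.0% of all 12005 genes tested were called. For 18 genes the fitted peak lay between 10 and 17 h after the morning operation, in the night hours, and for 8 between 2 and 7 h, windows drawn after the peaks were seen. Of all 3356 genes called, 28.9% and 42.3% peaked in these windows. The later window held Ahcy (peak 15.5 h, amplitude 0.42), Asl (14.8 h, 0.60), Sds (13.9 h, 0.72), Gpt (13.2 h, 0.65) and Prodh (13.5 h, 0.79), and the early one Cbs (4.5 h, 0.55), Amdhd1 (4.9 h, 0.37) and Amt (5.0 h, 0.49). Sham livers at 16 h had Asl at 9.17, 9.35 and 9.55, and sham livers at 4 h at 7.93, 7.96 and 8.13. Cbs ran opposite, with 6.17, 6.35 and 6.53 in sham livers at 16 h and 7.47, 7.47 and 7.60 in sham livers at 4 h. Without the library labelled sham 4 h replicate 1, 29 were called. Library series and time overlap in part, and with series as a term 8 were called. Ahcy, with an amplitude of 0.37 in that fit, was not among them. The shares of all genes called in these fits are not given here, so these counts are not set against all genes. Rhythm and series cannot be fully told apart.

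After PHx the curve was called for 7 of 55 (12.7%), where 8.28% of 12315 genes were called. They were Asl (peak 11.7 h, amplitude 0.86), Cbs (4.3 h, 0.78), Got1 (7.5 h, 1.02), Mat1a (11.7 h, 0.73), Sds (7.2 h, 1.07), Qdpr (7.3 h, 0.30) and Amdhd1 (2.9 h, 0.38), and 5 of them were also called in sham. With library series as a term the amplitude of Cbs was 0.44 and not called, and Sds was not called with TMM scaling or without any 1 of the PHx 20 h libraries. In these 24 livers a 24 h component can be rhythm or a response that changes with time after surgery, which cannot be told apart. Without PHx 28 h replicate 2, 16 were called, and the share of all genes in that fit is not given here. In the test of the difference between the curves after PHx and in sham (limma), 11 of 55 had an unadjusted p under 0.05, as had 1338 of all 12957 genes. That test called 0 of 55 (1 with TMM scaling and 3 without PHx 28 h replicate 2), where 0.147% of all genes were called. The larger number called in sham is therefore not shown to be a difference in rhythm.

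**Figure D4:**
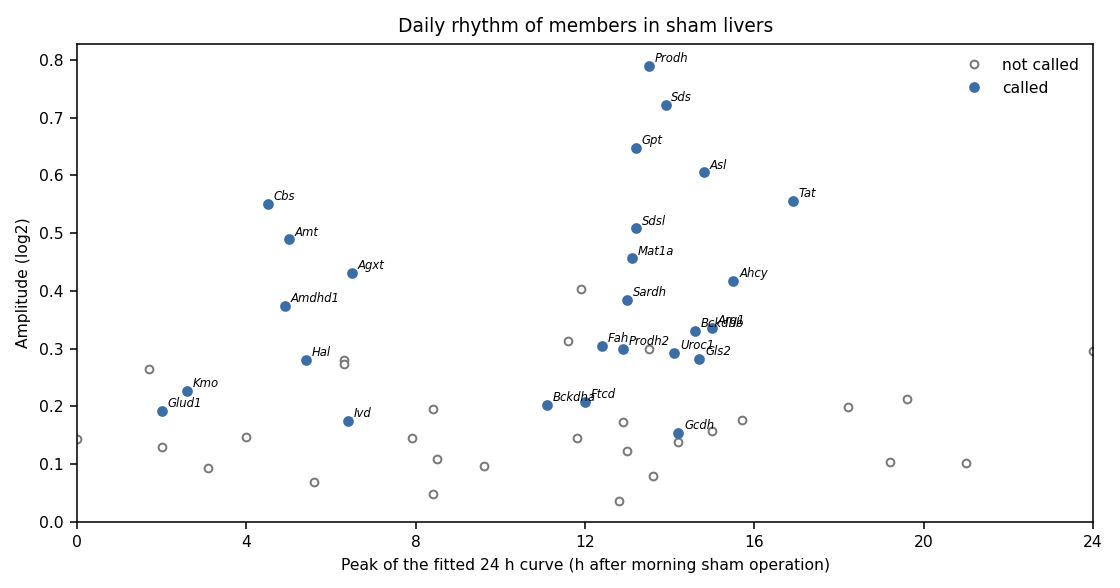
Amplitude in log2 of the fitted 24 h curve against the time of its peak (h after a morning sham operation) for the 55 genes in 24 sham livers, filled where the adjusted p was under 0.05. Called genes lie at 2 to 7 h, among them Cbs and Amt, and at 10 to 17 h, among them Asl, Sds and Prodh.

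A further question is the hour of operation. At 24 h, sham livers operated on in the morning and at night were 12 h apart in clock time, and counts called 3 of 55 genes higher and 2 lower in the morning (2.75% and 2.61% of all 12345 genes). In CPM (counts scaled to the library total), Amt was at 32.3, 33.7 and 28.1 in morning sham livers, against 15.5, 11.9 and 13.4 in night sham livers (log2 fold change 1.14 ± 0.17, edgeR adjusted p = 0.0031). Gldc, its partner in glycine cleavage, was at 154.4, 139.9 and 150.7 in morning livers, against 85.0, 71.5 and 41.3 in night livers (1.13 ± 0.20). Both subunits were higher in every morning liver. Cbs was higher by 0.77 ± 0.17, and lower in the morning were Sds (-1.10 ± 0.21), at 8.7, 12.1 and 10.4 in morning livers and 26.6, 18 and 19.7 in night livers, and Asl (-0.65 ± 0.17). Only Amt stayed called without each of the 6 libraries in turn. The other 4 were lost without sham 24 h morning replicate 1, when 1 of the 55 was called, while 9 were called without sham 24 h night replicate 3 and 2 or 3 without each of the other libraries.

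At 24 h after PHx, morning against night livers gave an unadjusted p under 0.05 for 11 of 55 and for 1193 of 12658 genes (edgeR). None of the 55 was called (5 by DESeq2, and 2 without PHx 24 h night replicate 2), where 0.332% of all genes were called. The smallest adjusted p was that of Arg1 (0.083), with a log2 fold change of -1.08 ± 0.22. At 4 h after PHx, 1 of 55 was called, where 0.853% of 8325 genes were. That gene was Cbs, at 322.1, 312.9 and 374.0 recovered CPM in morning livers, against 188.6, 185.3 and 209.1 in night livers (0.80 ± 0.13, limma adjusted p = 0.042), and it was not called in any of the 6 fits that left out 1 library, nor with the replicate number as a block. At 4 h after sham operation none of the 55 was called (limma; 2 with an unadjusted p under 0.05), where 0.00% of 11391 genes were called. Of those 11391 genes, 667 had an unadjusted p under 0.05.

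PHx against sham was also measured 24 h after night operations, in livers that share none with the morning groups. There 24 of the 55 fell and 8 rose, where 11.3% of all 12056 genes were called lower and 11.9% higher. Of the 10 hepatocyte markers, 5 fell and 1 rose in the same comparison, and their part in the result was not tested. Afmid was at 3.0, 6.0 and 1.4 CPM in PHx livers, against 10.5, 9.9 and 12.6 in sham livers (log2 fold change -1.92 ± 0.41). Haao was at 83.9, 111.9 and 62.0 in PHx livers, against 221.6, 178.2 and 166.3 in sham livers (-1.38 ± 0.20). Other falls included Ahcy (-1.24 ± 0.20), Gnmt (-1.21 ± 0.19), Gls2 (-1.20 ± 0.21) and Tdo2 (-1.20 ± 0.19). Slc25a15, the ornithine carrier, rose, with 694.4, 553.5 and 436.0 in PHx livers against 216.2, 195.9 and 175.8 in sham livers (1.26 ± 0.18, edgeR adjusted p = 0.00017).

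Sdsl (1.48 ± 0.39; 0.91 and not called without PHx 24 h night replicate 3), Bhmt (0.96 ± 0.32; 0.74 to 0.97 and not called in 6 of the 12 fits that left out 1 library), Cbs (0.74 ± 0.16) and Mat1a (0.73 ± 0.21; 0.65 to 0.75 and not called without PHx 24 h night replicate 2 or sham 24 h night replicates 1 or 2) were also higher after night PHx. With the same edgeR fit, 18 of the 55 were called after morning operations, and 17 of these were called after night operations in the same direction. They make up 94.4% of the morning calls and 53.1% of the 32 night calls, where over all genes the shares were 72.8% and 36.9%. The log2 fold changes had the same sign for 45 of 55 genes and for 72.7% of all 12056. In the test of the difference of the PHx response, morning minus night (edgeR), 12 of 55 had an unadjusted p under 0.05, as had 1240 of 12056 genes. That test called 0 of 55 (2 by DESeq2, and 1 or 2 without PHx 24 h night replicates 2 or 3), where 0.489% of all genes were called. The smallest adjusted p was 0.051, for Slc25a15 (-1.17 ± 0.25), whose log2 fold change after morning PHx was 0.09 ± 0.17.

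**Figure D5:**
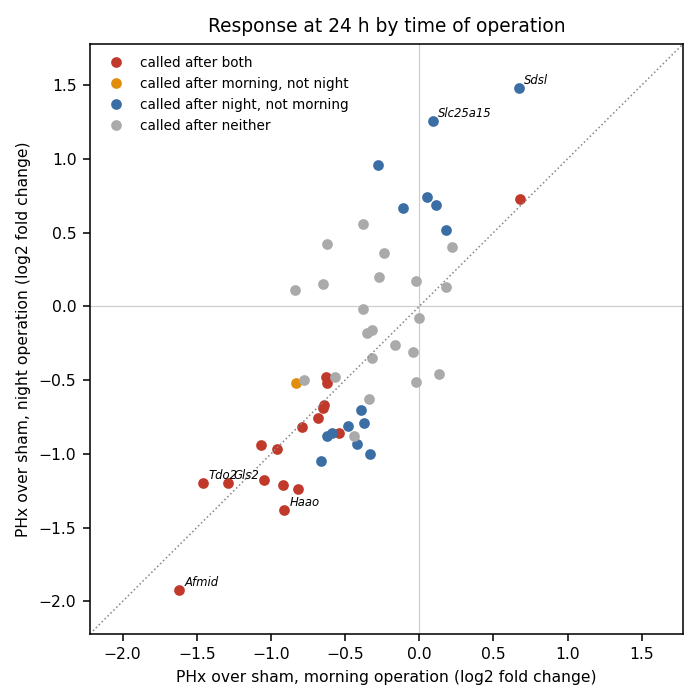
Log2 fold change of counts, PHx over sham, 24 h after morning (horizontal) and night (vertical) operations for the 55 genes, coloured by where the adjusted p was under 0.05; the dotted line marks equal values. Of the 55, 37 were lower after both operations, with Afmid at -1.62 and -1.92, and Slc25a15 stood at 0.09 and 1.26.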

How the data were processed

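The members and lists were chosen with earlier results of these data known. Per the submitters' processing notes, reads were handled with fastp 0.20.0 and HISAT2 2.1.0, and the builds mm8 and mm9 are named without a role; the counting tool and gene models are not named in the labels. The time course values were deposited as log2(value + 1), with no unit stated per the file headers. The 24 h tables hold a raw count per gene, deposited by the authors beside a column headed TPM. The deposited 4 h PHx signal, headed TPM, is a count times a constant per gene: 100% of recovered counts were whole within 0.01, for 11724 of 11840 genes. The 4 h sham table holds TPM, per the file headers. No labelled sample matches 6 of the columns in the PHx files, which were not used.

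Time course differences were fitted in R 4.3.3 by limma 3.58.1 over 48 libraries in 16 groups, with two-sided moderated tests (trended prior), keeping genes that reached a value of 1 in 3 or more libraries. Rhythm used cosine and sine terms of a 24 h period. For counts, the quasi-likelihood test of edgeR 4.0.16 followed filterByExpr and TMM scaling, with DESeq2 1.42.0 as an alternative. The 4 h PHx table was TMM-scaled and tested with limma on log2(value + 1), and the 4 h sham table on log2(TPM + 1). Standard errors of edgeR were taken as the log2 fold change over the root of F. Depth was 24.6 to 30.2 M counts in the 24 h tables and 24.9 to 30.6 M recovered counts at 4 h after PHx. The labels give 3 mice per group. Alternatives were other scalings, pseudocounts, filters and tools, leaving out each library, and the replicate number as a block. The fits were tested on simulated data.

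Named genes are the member with the smallest p over the 8 times in each pathway, the 5 largest called rises and falls of each comparison, the called members with the 5 smallest adjusted p for rhythm, related pairs of enzymes, the 4 smallest adjusted p of each further list, and Klf15, Ppargc1a, Cebpa, Cebpb, Gcgr and Glul. Some genes that this rule names are not reported here. Other genes were named after their values were seen.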

Additional observations from a re-analysis of the deposited data

Results flagged for a closer look

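The response to PHx differed between the later times (16, 20 and 24 h) and the early times (4 and 8 h) for 21 of the 55 genes, by a test of that difference (limma, adjusted p under 0.05). Of all genes 36.3% were called higher and 3.64% lower in this test, against 6 (10.9%) and 15 (27.3%) of the 55. In both directions together 38.2% of the 55 and 5170 of 12957 genes were called, so that total does not stand above all genes. The share called lower was above that of all genes, and the share called higher was below it. With TMM scaling 35 of the 55 were called lower and 1 higher, where 14.1% and 11.0% of all genes were. The later response was lower for Sds (-2.90), Aass (-1.47), Tdo2 (-1.45), Asl (-1.37) and Got1 (-1.29), all of which kept that direction and call with TMM scaling. It was higher for Amt (1.33), Bhmt2 (0.60), Gpt (0.59), Glud1 (0.48) and Slc25a13 (0.45), where the median of all genes was 0.33. With TMM scaling Amt was at 0.87 and called, while Bhmt2 (0.13), Gpt (0.11), Glud1 (0.00) and Slc25a13 (-0.02) were not. Gpt was also not called without PHx 4 h replicate 3 (0.44) or without sham 4 h replicate 1 (0.50), and Glud1 was not called in 14 of the fits that left out 1 library (0.38 to 0.48).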

How the results depend on the processing

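The number of the 55 genes called moved by over 1.5 times under the first settings below, and by less or more when 1 library was left out, and the cause was not tested. TMM scaling called 25 at 8 h (38 as deposited), 36 for late minus early (21) and 1 for the rhythm difference (0). It gave late minus early values of -0.02 for Slc25a13 and -0.01 for Nags, both called and positive as deposited. Fits on the libraries of 1 time called 19 at 16 h (30) and 3 at 28 h (26). Library series as a term called 8 for rhythm in sham (26), 14 after PHx (7) and 2 for their difference (0), and leaving out the 4 h libraries or a pseudocount of 5 called 1 each for that difference. DESeq2 called 9 for morning against night in sham at 24 h (5), 5 after PHx (0) and 2 for the morning minus night PHx response (0), and the replicate block called 1 for that difference. Morning against night PHx at 4 h called 0 (1) with values as deposited and with no filter. Leaving out 1 library at a time gave 18 to 21 at 4 h, 15 to 22 at 12 h, 11 to 18 at 32 h, 5 to 16 for rhythm after PHx, 0 to 3 for the rhythm difference, 1 to 9 for morning against night in sham at 24 h, 0 to 2 after PHx, 0 to 2 for the morning minus night PHx response and 0 for PHx at 4 h. The lowest counts came without sham 12 h replicates 1 or 2 and without PHx 32 h replicate 1, and 14 and 15 were called without sham 32 h replicate 1 and PHx 32 h replicate 2. The sham group of the same clock hour a day apart, chosen after seeing the data, called 25 (4 h), 42 (8 h), 26 (28 h) and 22 (32 h). Deviations of same-numbered PHx and sham libraries from their group means had correlations of -0.11 to 0.21. Correlations this small do not settle whether the numbers pair the libraries, and the main fits did not pair them. The replicate block called 22, 39, 24, 31, 30, 14, 28 and 24 from 4 to 32 h and changed no count by over 1.5 times but the one above. For morning against night PHx at 4 h the count stayed at 1, with Amdhd1 called in place of Cbs. The depth of the time course is unknown.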

Other observations

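The 55 genes together held 0.92, 1.02 and 1.25% of the summed linear values in PHx livers at 24 h, against 1.28, 1.43 and 1.49% in sham livers. At 16 h the median share was 1.45% in PHx livers and 2.29% in sham livers, without overlap of the groups. At 4 h it was 2.00% in PHx livers, with a range of 1.45 to 2.20%, and 1.62% in sham livers, with a range of 1.48 to 1.88%. The order of the medians at 4 h was thus the reverse of that at 16 and 24 h, with overlap at 4 h. At 20 h the PHx median was also the higher, at 1.70% against 1.66% in sham livers. The ranges overlapped there (0.96 to 1.77% and 1.61 to 2.25%), and the PHx mean was the lower (1.48 and 1.84%). At 12 h the PHx median was the lower (1.47 and 1.59%), with overlap. Among the sham groups the median share was highest at 16 h, with 2.29%, and lowest at 24 h, with 1.43%.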
